A study of Mus musculus with 6 samples.

Results

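The genes described here are 8 chemokines, Ccl2, Ccl7, Ccl9, Ccl5, Cxcl1, Ppbp, Cxcl10 and Cxcl16, which were all dimmer on the arrays of CypD knockout mouse embryonic fibroblasts than on those of wild-type fibroblasts. They were measured by the 10 probes whose single annotated gene symbol was one of these names, out of 45281 probes on each array and 7606 genes with a named probe. The study set 3 arrays of CypD knockout cells beside 3 arrays of wild-type cells, both grown from E13.5 embryos on the C57BL/6 strain background and kept in serum-containing culture medium. Total RNA was labelled with biotin and hybridised to Illumina bead arrays. The knockout cells lack cyclophilin D, a prolyl isomerase of the mitochondrial matrix that is the product of Ppif, and no stimulus or treatment is named for either group. Replicates carry the letters A, B and C in both groups, and the labels do not say whether a letter stands for an embryo, a litter or a dish. The p-values below therefore rest on variation among 6 arrays that could be technical in origin.

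Chemokines are small secreted proteins that bind to receptors coupled to G proteins and draw cells up a concentration gradient. Fibroblasts release inflammatory chemokines when receptors for microbial products, interleukin-1, tumour necrosis factor or interferons are engaged, largely through the transcription factor NF-kB and, for the interferon-inducible ones, through STAT and IRF factors. Ccl2, Ccl7, Ccl9 and Ccl5 belong to the CC class and act on monocytes, with Ccl5 also acting on T cells, whereas Cxcl1 and the protein made from Ppbp bind Cxcr2 and draw neutrophils. Cxcl10 and Cxcl16 are ligands of Cxcr3 and Cxcr6, receptors found mainly on T cells and natural killer cells, so the name of monocyte and neutrophil chemokines describes 6 of the 8.

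The members were chosen by their lower intensity in knockout than in wild-type arrays, so their differences between the groups are given below as a description, without a test. All values are log2 intensities after background correction with an offset of 50 and quantile normalization, unless stated otherwise. A fold difference is CypD knockout over wild type, its error is the standard error (SE) of limma's fit, and a probe counts as called at a Benjamini-Hochberg adjusted p under 0.05 over all 27168 probes tested. Background and expression could not be separated for dim probes, because the deposited arrays carry no control probes or detection values.

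The sequences upstream of the transcription start were available for 4 of the 8 members and are shown because these genes were lower together. They are the 250 bases before the start from RefSeq, build GRCm38.p6, for Cxcl1 (chr5:90890995-90891244, plus strand), Cxcl10 (chr5:92348890-92349139, minus strand), Ccl9 (chr11:83578637-83578886, minus strand) and Ppbp (chr5:90768268-90768517, plus strand). Each is written from 5′ to 3′ on the strand of its gene. Capitals mark matches on either strand to the kB consensus bound by NF-kB and to TATAAA (the TATA box). They also mark GAAA followed by any 2 bases and GAAA again (the core of the interferon-stimulated response element). The remaining string is TGANTCA, a loose form of the AP-1 core that allows any middle base and is called AP-1 core below.
Cxcl1: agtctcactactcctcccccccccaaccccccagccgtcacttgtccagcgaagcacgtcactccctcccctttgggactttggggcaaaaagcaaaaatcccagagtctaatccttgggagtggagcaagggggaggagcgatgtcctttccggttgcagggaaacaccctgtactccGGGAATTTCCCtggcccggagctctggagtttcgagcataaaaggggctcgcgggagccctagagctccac
Cxcl10: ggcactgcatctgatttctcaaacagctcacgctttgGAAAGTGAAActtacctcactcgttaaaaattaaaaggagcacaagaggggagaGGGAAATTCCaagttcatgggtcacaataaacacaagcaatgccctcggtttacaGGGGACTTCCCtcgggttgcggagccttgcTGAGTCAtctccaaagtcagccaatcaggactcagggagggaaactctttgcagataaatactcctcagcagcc
Ccl9: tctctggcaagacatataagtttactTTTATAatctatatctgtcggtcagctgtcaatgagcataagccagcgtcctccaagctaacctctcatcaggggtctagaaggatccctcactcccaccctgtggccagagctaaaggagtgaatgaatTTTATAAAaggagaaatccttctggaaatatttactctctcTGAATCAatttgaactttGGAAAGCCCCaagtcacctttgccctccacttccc
Ppbp: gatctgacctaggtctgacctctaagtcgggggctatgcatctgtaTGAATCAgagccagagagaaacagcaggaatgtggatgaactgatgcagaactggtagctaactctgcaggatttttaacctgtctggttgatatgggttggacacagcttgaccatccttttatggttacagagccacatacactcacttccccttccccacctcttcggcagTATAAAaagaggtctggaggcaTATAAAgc
Cxcl1 held 1 stretch matching the kB consensus, at positions -71 to -61 relative to its start, and Cxcl10 held 2, at -159 to -150 and at -104 to -94. Cxcl10 was the only one of the 4 with the interferon element core, and it also held 1 AP-1 core. Ccl9 held 1 kB match, at -35 to -26, with 1 AP-1 core and 2 stretches with a TATA box. Ppbp held no kB match in this window, 1 AP-1 core and 2 TATA boxes. The AP-1 matches of Ccl9 and Ppbp both read TGAATCA, and that of Cxcl10 read TGAGTCA. Overlapping matches to the kB consensus were counted as 1 stretch, and no match overlapped one of another motif. Over 32851 promoter windows of the same length, 7.25% held the kB consensus, 2.98% the interferon element core, 6.75% the AP-1 core and 12.4% a TATA box. A match is a string of letters and was not tested for binding.

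The 6 arrays were alike in brightness, with median raw intensities between 223 and 251, and none repeated another. Normalized intensities of the tested probes correlated at 0.996 among knockout arrays, at 0.994 to 0.996 among wild-type arrays and at 0.982 to 0.984 between the groups. Ppif had 12.25, 12.35 and 12.18 in knockout arrays A, B and C, against 13.57, 13.70 and 13.62 in wild-type arrays. Its log2 fold change was -1.37 ± 0.07 (SE), and the knockout signal remained bright. The position of the Ppif probe on the transcript and the exons removed are not known here, and a probe outside the removed exons checks nothing.

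The monocyte attractants Ccl2 and Ccl7 had the widest gaps between the groups. Ccl2, the main ligand of Ccr2 on monocytes, had 8.51, 8.60 and 8.39 in knockout arrays A, B and C, against 11.59, 11.80 and 11.83 in wild-type arrays. On the raw linear scale these were intensities of 460, 465 and 428 in knockout cells and of 3448, 3715 and 3687 in wild-type cells. The groups did not overlap: the dimmest wild-type array lay 2.99 log2 units above the brightest knockout array. Its log2 fold change was -3.24 ± 0.09, which is 9.43-fold lower.

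Ccl7, a close relative of Ccl2 that binds several CC receptors, was read by 2 probes. The brighter gave 9.23, 9.12 and 9.21 in knockout arrays, against 12.37, 12.47 and 12.63 in wild-type arrays. The dimmer gave 8.70, 8.60 and 8.75 in knockout arrays, against 11.75, 11.87 and 11.59 in wild-type arrays. Both probes separated the groups by more than 2.84 log2 units. They gave log2 fold changes of -3.30 ± 0.08 and -3.06 ± 0.09, or 9.87-fold and 8.32-fold lower. The array highest among the wild-type arrays differed between the probes, array C for the brighter and array B for the dimmer.

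Ccl9, which in mice signals through Ccr1, had 7.81, 7.69 and 7.61 in knockout arrays, against 10.04, 10.14 and 10.27 in wild-type arrays. It was 5.43-fold lower, with a log2 fold change of -2.44 ± 0.10. Ccl5, which draws T cells as well as monocytes, had 9.43, 9.52 and 9.40 in knockout arrays, against 11.57, 11.44 and 11.72 in wild-type arrays. It was 4.36-fold lower, with a log2 fold change of -2.12 ± 0.09. In both genes all knockout arrays lay within a narrow band well below every wild-type array.

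The neutrophil attractants were also lower in knockout arrays. Cxcl1 had 11.80, 11.64 and 11.86 in knockout arrays, against 12.93, 13.17 and 13.23 in wild-type arrays. Its raw intensities of 3593, 3141 and 3721 in knockout cells, against 8614, 9453 and 9630 in wild-type cells, were all far above the array medians. The log2 fold change was -1.34 ± 0.09, or 2.53-fold lower.

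Ppbp, best known as a platelet product that is cut into a Cxcr2 ligand, was read by 2 probes. The brighter gave 6.92, 6.87 and 6.36 in knockout arrays, against 9.34, 9.60 and 9.31 in wild-type arrays. The dimmer gave 6.41, 6.30 and 6.35 in knockout arrays, against 8.60, 8.66 and 8.52 in wild-type arrays. Every wild-type array lay above every knockout array for both probes, and their log2 fold changes were -2.70 ± 0.14 and -2.24 ± 0.10. In knockout cells the brighter probe stood at the 27.8th and the dimmer at the 6.36th percentile of all probes, and the log2 fold change of the brighter probe moved with the background treatment. It was -1.95 without background correction and -3.20 with an offset of 16.

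Cxcl10 and Cxcl16, the ligands of Cxcr3 and Cxcr6, had dim signals. Cxcl16 had the smallest difference of the members, while that of Cxcl10 was within error of that of Cxcl1. Cxcl10, an interferon-inducible chemokine, had 7.26, 7.19 and 7.55 in knockout arrays, against 8.64, 8.84 and 8.46 in wild-type arrays. Its log2 fold change was -1.31 ± 0.13, or 2.48-fold lower, with the largest scatter within wild type of any member (SD 0.192). Cxcl16, which is made as a membrane-bound protein and shed by proteases, had 7.71, 7.58 and 7.72 in knockout arrays, against 8.31, 8.40 and 8.48 in wild-type arrays. It was 1.66-fold lower, with a log2 fold change of -0.73 ± 0.10 and a gap of 0.60 log2 units between the groups, the narrowest of the 10 probes.

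**Figure D1:**
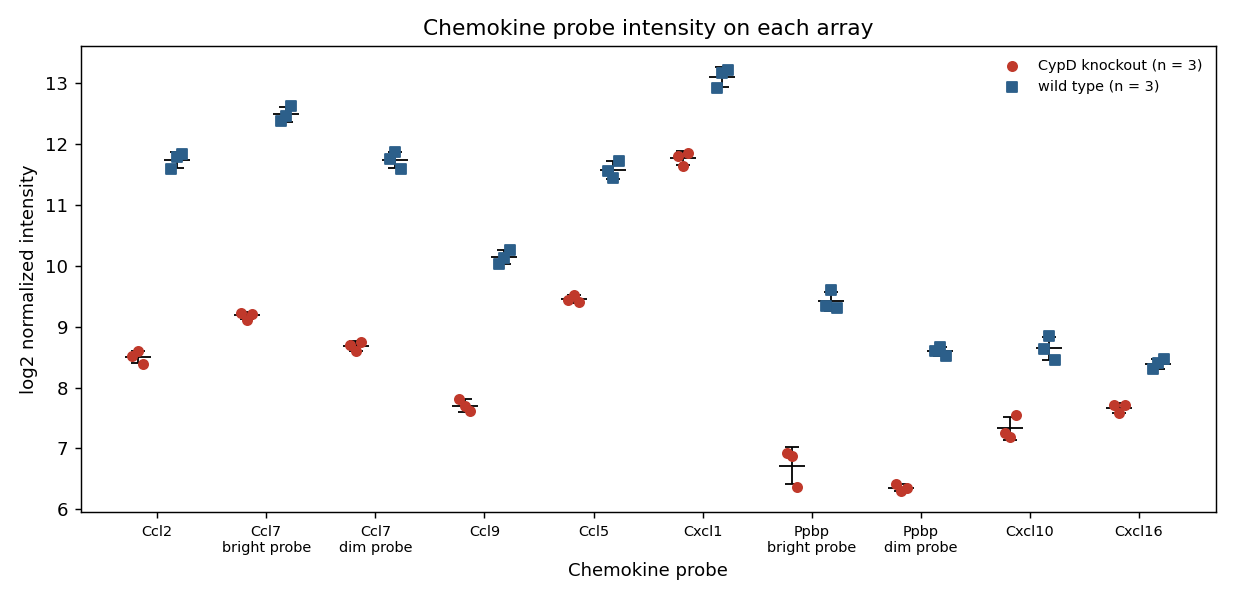
Log2 normalized intensity (vertical axis) of each of the 10 chemokine probes (horizontal axis) on every array, with CypD knockout arrays as red circles left of wild-type arrays as blue squares, and bars for the mean and SD of 3 arrays. The 2 sets of symbols do not overlap for any probe, and the gap runs from 0.60 for Cxcl16 to more than 3 for the brighter Ccl7 probe.

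All 10 probes, and so all 8 genes by their brightest probe, had every knockout array below every wild-type array. Over all 7605 named genes tested, 27.6% had this pattern, and because the 8 were chosen for it nothing is read from the contrast. As a description of that choice and not as a test, all 8 genes lay past the call threshold, where 21.8% of named genes were called lower, as did all 10 probes, where 10.2% of tested probes were called lower and 20.0% in either direction. Among the genes, 7 were at least 2-fold lower, where 2.91% of named genes were. The median log2 fold change of the 8 was -2.28, beside 0.01 for all named genes. In the order of log2 fold changes over named genes, lowest first, Ccl7, Ccl2, Ccl9 and Ccl5 stood 6th, 7th, 21st and 31st, while 372 genes lay below Cxcl16. All 10 probes passed the filter on dim probes, those of Ppbp only through their wild-type signal, and at the stricter 70th percentile Cxcl10 and Cxcl16 were no longer among the tested genes.

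**Figure D2:**
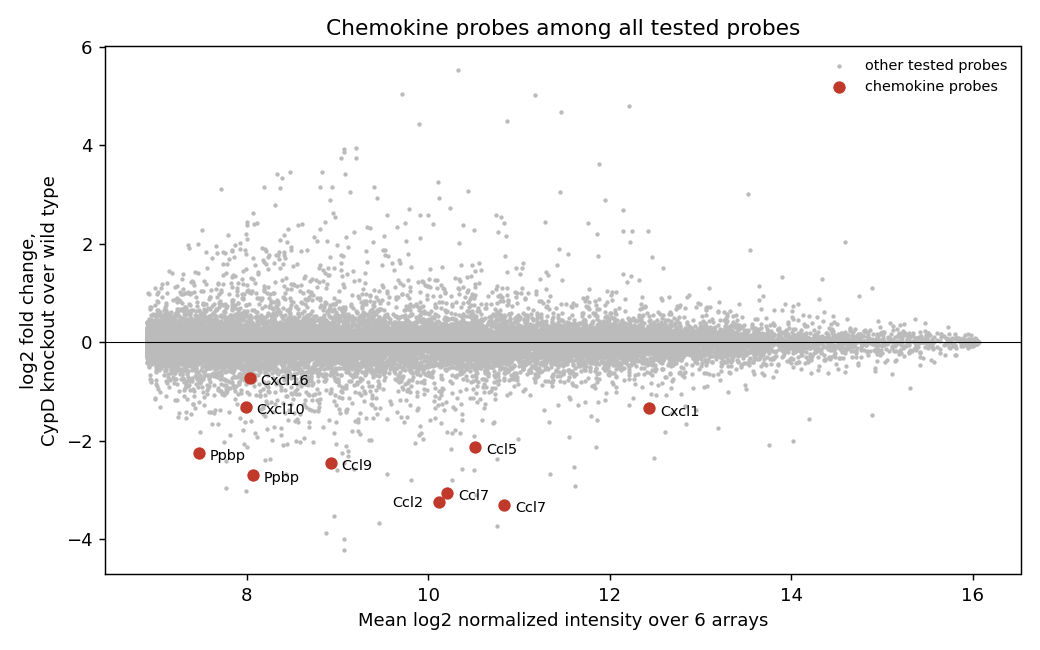
Log2 fold change, CypD knockout over wild type (vertical axis), against mean log2 intensity over the 6 arrays (horizontal axis) for the 27168 tested probes in grey, with the 10 chemokine probes in red. The chemokine probes all lie below 0, from -0.73 for Cxcl16 to -3.30 for the brighter Ccl7 probe, and spread over dim and bright signals.

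Among themselves the members fell into a graded order, of which only some steps exceeded their error. Ccl7 and Ccl2 differed by 0.07 ± 0.12 in log2 fold change (SE of the difference), and Cxcl1 and Cxcl10 by 0.03 ± 0.15, both within error. Ppbp had no settled place in the order: without background correction its log2 fold change of -1.95 was smaller in size than that of Ccl9 (-2.02), and with an offset of 16 it was -3.20. A larger step lay between Cxcl10 and Cxcl16 (0.58 ± 0.16). Ccl9 and Ccl5 differed by 0.32 ± 0.13 in the main setting, a step that depended on the background treatment. Without background correction Ccl9 (-2.02) lay within the range of Ccl5 over the alternative settings with all 6 arrays (-2.18 to -1.98). With Ppbp placed between Ccl2 and Ccl9, its steps in the main setting were 0.54 ± 0.17 and 0.25 ± 0.17. In that order the step between Ccl5 and Cxcl1 was the widest, at 0.78 ± 0.12. It set the 5 genes of larger difference apart from Cxcl1, Cxcl10 and Cxcl16. With Ppbp left aside, Ccl2 (-3.24) and Ccl9 (-2.44) lay about as far apart as Ccl5 and Cxcl1. Within groups no array was low or high for all members. Among wild-type arrays, A was lowest for 5 of the 10 probes and C for 4, and among knockout arrays B was lowest for 6 and C for 4. The SD within a group ran from 0.06 to 0.31 log2 units, the highest being that of the brighter Ppbp probe in knockout cells.

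**Figure D3:**
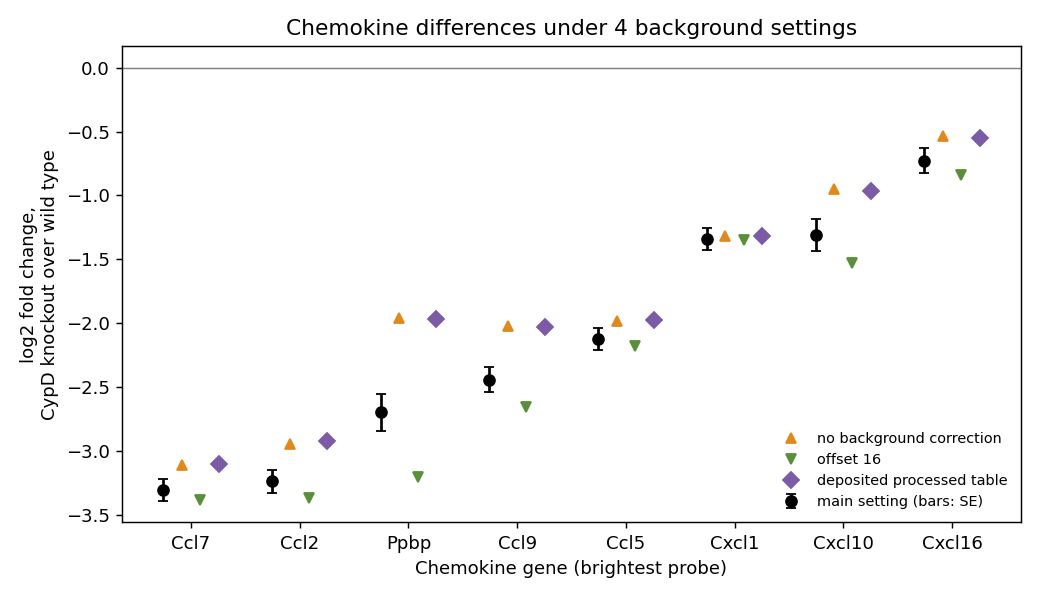
Log2 fold change, CypD knockout over wild type (vertical axis), of the 8 chemokine genes by their brightest probe (horizontal axis), with SE bars for the main setting and single points for 3 other treatments of background. Every point lies below 0. For Cxcl1 the points nearly coincide, whereas for Ppbp they run from -1.95 to -3.20.

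In assembly GRCm38.p6 5 members lie on chromosome 11 and 3 on chromosome 5. Ccl2 and Ccl7 are direct neighbours, as are Ccl5 and Ccl9, with 0 protein-coding genes between the partners. Ppbp and Cxcl1 are separated by 3 genes, Pf4, Cxcl3 and Cxcl15, none of which had a tested named probe. Of the 53 other protein-coding genes within 5 places of a member, 14 had a tested named probe, and of these 2 rose, 0 fell and 12 did not pass, where 43.6% of named genes were called in either direction. The 2 that rose, named here after their values were seen, were Scarb2, a lysosomal membrane protein near Cxcl10 (0.48 ± 0.09, adjusted p = 0.0011), and Taf15, an RNA-binding protein near Ccl5 (0.92 ± 0.27, adjusted p = 0.0289). The Taf15 call was lost without the intensity trend (adjusted p = 0.0818), without knockout array B or C (adjusted p = 0.131 and 0.129) and without wild-type array B (adjusted p = 0.0861). The probe sequences were not used here, so binding of a probe to a close relative in the same cluster could not be examined.

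Other tested chemokine ligands mostly rose. Because the 8 members were set apart for their lower signal, the direction of the remaining ligands partly follows from that choice. Cxcl12, the ligand of Cxcr4 and a constitutive product of stromal cells, rose 4.13-fold, with 15.61, 15.65 and 15.58 in knockout arrays, against 13.60, 13.61 and 13.49 in wild-type arrays (2.05 ± 0.05, adjusted p = 5.94e-12). The 2 dimmer Cxcl12 probes had log2 fold changes of 1.79 and 1.74. Cx3cl1, a membrane-anchored chemokine, rose 2.57-fold (1.36 ± 0.09, adjusted p = 7.75e-08), and Ccl17, a ligand of Ccr4, rose 1.85-fold (0.89 ± 0.12, adjusted p = 6.51e-05). Ccl27a, known from skin, rose by 0.31 ± 0.08 (adjusted p = 0.0113), a call lost without knockout array B (adjusted p = 0.0661). Ccl25, known from thymus and gut, fell by 0.33 ± 0.10 (adjusted p = 0.0349), and its other probe did not pass (-0.24, adjusted p = 0.222). The Ccl25 call was lost without knockout array A or C (adjusted p = 0.0763 and 0.173), without wild-type array B or C (adjusted p = 0.0912 and 0.0746) and without the intensity trend (adjusted p = 0.07). Of 30 other ligands 5 had a tested named probe, 4 of which rose and 1 fell, with a median log2 fold change of 0.89. Of 23 chemokine receptors 0 had one, so Ccr2, Cxcr2, Cxcr3, Cxcr6 and the other receptors of the 8 ligands have no value here. Named probes were those in the deposited processed table, all of which vary over the arrays, and the called share was 43.6% among named genes but 20.0% among all tested probes.

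In the NF-kB pathway more measured genes fell than rose. Nfkbia, the inhibitor that NF-kB induces and that holds it in the cytoplasm, had 9.56, 9.72 and 9.78 in knockout arrays, against 10.65, 10.54 and 10.68 in wild-type arrays. It fell by 0.93 ± 0.09 on the log2 scale (adjusted p = 2.59e-06), and its other probe gave -1.10. Relb, a subunit of the noncanonical branch, fell by 0.79 ± 0.09 (adjusted p = 1.33e-05), and Otulin, a deubiquitinase of linear chains, by 0.46 ± 0.07 (adjusted p = 0.000164). Nfkbid, a nuclear inhibitor, rose by 0.87 ± 0.12 (adjusted p = 9.89e-05) and passed the filter on dim probes only through knockout arrays. Cyld, another deubiquitinase, and Ikbkg, the regulatory subunit of the IkB kinase, had 0.09 ± 0.08 and -0.18 ± 0.08 and did not pass (adjusted p = 0.575 and 0.139). Of 21 listed genes 17 were tested, and 2 rose, 11 fell and 4 did not pass, with a median of -0.37 beside 0.01 for all named genes. The called share was 76.5%, beside 43.6% for all named genes, of which 21.8% were called lower and 21.8% higher. Several of these genes are themselves induced by NF-kB, and pathway activity was not measured.

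Receptors and adaptors upstream of chemokine induction were called about as often as named genes in general. The shared cytokine receptor subunit Il6st and the oncostatin M receptor Osmr rose by 0.98 ± 0.09 and 0.94 ± 0.07 (adjusted p = 2.75e-06 and 2.81e-07). Tnfrsf1b, a receptor of tumour necrosis factor, and Tlr2, a receptor for bacterial lipoproteins, fell by 0.76 ± 0.09 and 0.71 ± 0.09 (adjusted p = 3.89e-05 and 4.16e-05). Tab2 and Irak1, which carry the signal to the IkB kinase, had 0.19 ± 0.07 and -0.23 ± 0.10 and did not pass (adjusted p = 0.095 and 0.154), although Irak1 passed without knockout array A (adjusted p = 0.0444). Of 36 listed genes 21 were tested, and 3 rose, 6 fell and 12 did not pass (median -0.17), a called share of 42.9% beside 43.6% for all named genes. The number that fell was 3 without knockout array B, without knockout array C or without the intensity trend.

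Among transcription factors of the interferon and AP-1 pathways, Irf5 stood out with a rise of 2.73 ± 0.08 (adjusted p = 2.85e-11). This factor of Toll-like receptor signalling had 11.67, 11.55 and 11.59 in knockout arrays, against 8.76, 8.89 and 8.96 in wild-type arrays. Irf3, which acts in antiviral induction, rose by 0.49 ± 0.06 (adjusted p = 3.57e-05) by its brightest probe, while the 2 dimmer Irf3 probes had 0.23 and 0.16 and missed the threshold. Stat3, the factor downstream of Il6st, rose by 0.60 ± 0.10 (adjusted p = 0.000576), and Junb, an AP-1 subunit, fell by 0.48 ± 0.07 (adjusted p = 0.000168). Fos and Cebpd had 0.31 ± 0.12 and 0.21 ± 0.07 and did not pass (adjusted p = 0.102 and 0.0631). Fos passed without wild-type array C (adjusted p = 0.0324) and Cebpd without knockout array B, with the filter at the 70th percentile and in the deposited processed table (adjusted p = 0.0375, 0.0445 and 0.0487). Of 21 listed genes 13 were tested, and 4 rose, 5 fell and 4 did not pass (median 0.15), a called share of 69.2% beside 43.6% for all named genes, with 3 falls without knockout array B or without knockout array C.

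Other inflammatory products fell more often than they rose, with exceptions. Mmp3 and Mmp13, matrix-degrading enzymes induced by inflammatory cytokines, fell by 2.40 ± 0.13 and 1.65 ± 0.11 by their brightest probes (adjusted p = 1.39e-08 and 5.2e-08), and the cytokine Lif fell by 1.10 ± 0.12 (adjusted p = 1.43e-05). The dimmer Mmp3 probes had -1.52 and -0.72, and the dimmer Lif probe had -0.59. Both enzymes passed the filter on dim probes only through wild type, and the value of the brightest Mmp3 probe was -1.66 without background correction and -2.94 with an offset of 16. Vcam1, an adhesion molecule for leukocytes, rose instead by 0.72 ± 0.07 (adjusted p = 2.87e-06), with 0.75 and 0.52 for its dimmer probes. Csf1, the growth factor of macrophages, and Nos2 had -0.18 ± 0.07 and 0.22 ± 0.16 and did not pass (adjusted p = 0.123 and 0.402), although Csf1 passed without wild-type array C or with median scaling (adjusted p = 0.0395 and 0.0399). Of 24 listed genes 10 were tested, and 2 rose, 6 fell and 2 did not pass (median -0.72), where 21.8% of all named genes rose and 21.8% fell.

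Enzymes that trim or shed chemokines and their inhibitors showed no common direction. Mmp2, a gelatinase known to cleave monocyte chemoattractants, rose by 2.26 ± 0.06 (adjusted p = 1.48e-11) and the cathepsin Ctsl by 0.75 ± 0.13 (adjusted p = 0.000775). The protease inhibitors Timp3 and Timp1 fell by 1.83 ± 0.06 and 0.31 ± 0.06 (adjusted p = 7.76e-11 and 0.00183). Timp2, the other tested inhibitor, rose by 0.26 ± 0.05 (adjusted p = 0.00235). The dimmer Timp3 probes had -1.84 and -0.59. Adam10 and Adam17, the sheddases of membrane-bound chemokines such as Cxcl16, had 0.15 ± 0.15 and 0.14 ± 0.12 and did not pass (adjusted p = 0.603 and 0.533). Of 13 listed genes 7 were tested, and 3 rose, 2 fell and 2 did not pass (median 0.15), where 43.6% of all named genes were called.

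**Figure D4:**
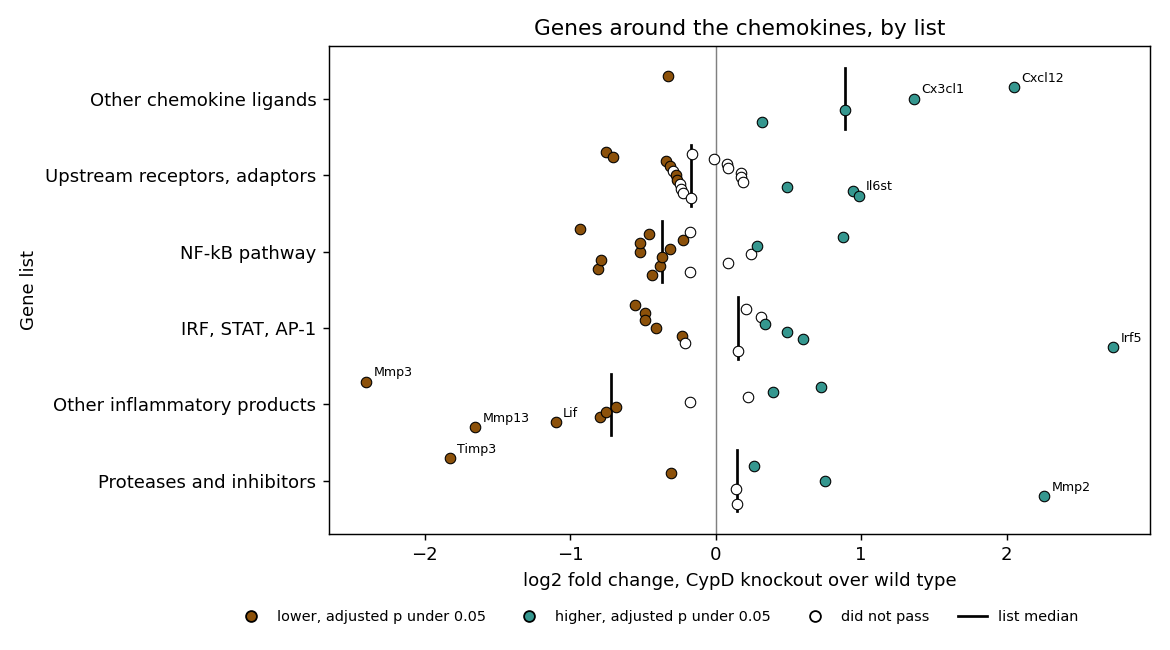
Log2 fold change, CypD knockout over wild type (horizontal axis), of every tested gene in 6 lists (vertical axis), filled where the adjusted p was under 0.05 and open where it was not, with a bar at the list median. The NF-kB list has a median of -0.37 and the other chemokine ligands one of 0.89, and Irf5 lies far to the right at 2.73.

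Genes with the most similar profiles over the 6 arrays were found by the Euclidean distance between log2 values centred on each gene's mean, among 7604 other named genes. Nearest to Ccl2 were Ccl7 (distance 0.25), the homeobox gene Hoxc9 (0.25), the pseudogene Gpr137b-ps (0.48), the Notch target Hey1 (0.55) and the alcohol dehydrogenase Adh7 (0.56). Nearest to Cxcl10 were the copine Cpne8 (0.19), Hoxd13 (0.25), the class I histocompatibility gene H2-T10 (0.25), the proliferin gene Prl2c4 (0.26) and Reep5 (0.31), which shapes the endoplasmic reticulum. Nearest to Cxcl16 were the interferon-inducible Oasl2 (0.07), Troap (0.08), Rbpms2 (0.09), the natriuretic peptide gene Nppb (0.10) and 1700088E04Rik (0.11). Each profile rests on 6 arrays in 2 groups.

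Markers of cells that release these chemokines in tissue were mostly without a named probe. Of 16 monocyte and macrophage markers 2 were tested, and neither Cd14 (-0.25 ± 0.09, adjusted p = 0.0824) nor Coro1a (0.30 ± 0.13, adjusted p = 0.12) passed. Their summed linear signal ran from 879 to 902 in knockout arrays and from 864 to 1066 in wild-type arrays. Cd14 passed as lower without wild-type array B (adjusted p = 0.0462) and Coro1a as higher without wild-type array C (adjusted p = 0.00696). Of 11 platelet and megakaryocyte markers 2 were tested, Gp1bb (0.21 ± 0.16, adjusted p = 0.465) and Gp9 (0.15 ± 0.13, adjusted p = 0.5), with sums of 336 to 348 in knockout arrays and of 256 to 350 in wild-type arrays. Gp1bb passed as higher without wild-type array C (adjusted p = 0.0361). Of 12 neutrophil and mast cell markers 0 had a tested named probe.

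Among fibroblast markers 11 of 15 were tested, and Col1a1, Col5a1 and Fn1 were bright in both groups by their brightest probes. Others were dim, among them Vim (mean log2 intensity 7.60 in knockout and 7.84 in wild type) and Dcn (6.97 and 7.61). Of these 11, 3 rose, among them Pdgfra (1.47 ± 0.11, adjusted p = 3.11e-07) and Col3a1 (1.13 ± 0.08, adjusted p = 2.69e-07). A further 4 fell, among them S100a4 (-1.62 ± 0.10, adjusted p = 5.16e-08) and Col1a1 (-0.63 ± 0.06, adjusted p = 1.76e-06), and 4 did not pass, Fn1 and Col5a1 among them. Over all named genes 43.6% were called, 21.8% lower and 21.8% higher. The same shares stand beside the endothelial and epithelial counts below. Another Fn1 probe passed (0.39, adjusted p = 0.007). Of the brightest probes, that of Fn1 passed without knockout array B (adjusted p = 0.0201) and that of Col5a1 without wild-type array C (adjusted p = 0.015) or with median scaling (adjusted p = 0.0077). The summed fibroblast signal ran from 55766 to 59960 in knockout arrays and from 64803 to 70435 in wild-type arrays. This linear sum is weighted to the brightest genes and does not count the markers equally. The brightest were Col5a1 (mean log2 intensity 14.73 in knockout and 14.88 in wild type) and Col1a1 (13.36 and 13.99). Of 12 endothelial markers 4 were tested. Flt1 rose (0.44, adjusted p = 0.000711), Plvap and Egfl7 fell (-0.51 and -0.26, adjusted p = 0.00362 and 0.042), and Esam did not pass (-0.38, adjusted p = 0.0603). The Egfl7 call was lost without knockout array A or B and without wild-type array A or B (adjusted p = 0.184, 0.08, 0.0731 and 0.139), and also without the filter on dim probes or the intensity trend (adjusted p = 0.06 and 0.0765), while Esam passed as lower without knockout array A or wild-type array B (adjusted p = 0.0429 and 0.0132). Of 12 epithelial markers 4 were tested. Spint1 rose by its brightest probe (0.78, adjusted p = 8.68e-06) but not by the other (0.23, adjusted p = 0.376), Krt19 fell (-0.35, adjusted p = 0.0198), and Cldn7 and Cdh1 did not pass (-0.39 and -0.09, adjusted p = 0.0517 and 0.735). The Krt19 call was lost without knockout array A or C or wild-type array A (adjusted p = 0.0788, 0.0775 and 0.0581), and Cldn7 passed as lower without knockout array B, without background correction and in the deposited processed table (adjusted p = 0.0403, 0.0494 and 0.0475). The part of these markers in the chemokine values was not tested, and in a culture of mixed cells fewer cells of a type and less RNA per cell cannot be told apart.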

How the data were processed

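Total RNA of CypD knockout and wild-type fibroblasts was measured on 3 bead arrays per group. The authors deposited linear probe intensities for each array, and the submitters' processing notes name BeadStudio 3.0. Whether background was subtracted is not given in the sources used, and the lowest intensity per array was 118 to 139. The deposited series table holds processed intensities of 12534 probes, each varying at least 1.20-fold over the arrays, and gene names came from its annotation (10653 probes with 1 symbol, 10643 updated through Entrez identifiers to assembly GRCm38.p6).

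Background was corrected with normexp (offset 50) and log2 intensities were quantile-normalized with limma 3.58.1 (R 4.3.3). Probes with a mean above the 40th percentile were tested with lmFit and eBayes with an intensity trend, with Benjamini-Hochberg adjustment over all of them, and 5423 of 27168 (20.0%) were called. A gene was represented by its brightest tested probe. On data simulated for this comparison with 27168 probes, 96% of probes changed 2-fold and 100% of those changed 4-fold were recovered, and 6.67% of the calls were false. Only 100 probes were changed at each fold there, far fewer than were called here, with independent noise on normalized values. Background correction and normalization were not part of the simulation, so its rates may not hold for the real arrays. The members and gene lists were chosen with earlier results of these data known. The text names all members, Ppif, every other ligand or receptor tested, and from each other list up to 4 called genes of lowest p and, of those that missed the threshold, up to 2 with the brightest signal. Values of Timp2, Vim, Dcn, Scarb2 and Taf15 are given outside this rule. Profile neighbours are the nearest 5 genes. Alternatives were other background corrections, normalizations, filters and probe choices, the deposited table, no trend, a replicate block and leaving out each array. The number of arrays limits the precision.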

Additional observations from a re-analysis of the deposited data

How the results depend on the processing

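All 118 log2 fold changes of the 8 members under the alternatives were below 0, and 99 of them moved by less than 1 SD between replicates. Neither count is a test, since the members were chosen for being lower. A tested member's value stayed as it was when only the filter, intensity trend, replicate block or probe choice changed. Those values repeat the main one and are part of both counts. For most probes the deposited processed table held 0.982 to 0.997 times the quantile-normalized raw intensity. It therefore nearly repeats the setting without background correction. The median of the members was -1.97 without background correction, -1.97 from the deposited processed table, -2.42 with an offset of 16 and -2.57 with the filter at the 70th percentile, which tested fewer members. With one array left out it ran from -2.32 to -2.21. At that filter 6 members were tested and all 6 lay below wild type on every array; under the other alternatives all 8 did. The filter also left 1 rise in the NF-kB list and 2 falls among other inflammatory products, since fewer genes were tested. Without the intensity trend 0 other ligands and 3 upstream receptors and adaptors fell; the cause was not tested. With one array left out, falls ran from 0 to 1 among other ligands, from 3 to 6 among upstream receptors and adaptors, and from 3 to 5 among IRF, STAT and AP-1 factors. Called probes numbered 4079 to 5903 with one array left out, against 5423 with all 6. Same-letter arrays deviated from their group means with correlations of 0.10 (A), -0.09 (B) and 0.08 (C), so the letters were not taken to pair arrays; with a replicate block 5273 probes were called, and Fos, Esam and Cldn7 passed (adjusted p = 0.0348, 0.0374 and 0.0463). Of 1036 values for other named genes, 996 kept their side of the threshold, 19 lost the call and 21 gained it, and 0 called values changed sign. Signal near background limits the folds of Ppbp, Cxcl10 and Cxcl16. It also limits that of Ccl9, whose knockout signal was about as dim as that of Cxcl16. The log2 fold change of Ccl9 ran from -2.66 to -2.02 over the alternatives with all 6 arrays.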
